A study of Rattus norvegicus with 5 samples.

Results

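Cholesterol synthesis was followed in parietal cortex of rats with kaolin-induced hydrocephalus through 27 genes: 19 enzymes from acetyl-CoA to cholesterol, 2 enzymes that supply its precursors, and 6 genes that sense or carry sterols or control the pathway. The genes were named as members of the pathway or as targets of the transcription factor SREBP2, with earlier results of these data known. Every probe carrying such a name was taken, under a current or older rat symbol (Msmo1 is Sc4mol on the array). The set does not hold every enzyme of the pathway. All 27 genes had a probe, 38 probes in all, and each had at least 1 probe that passed the filter on dim signals (36 of 38 probes), out of 11964 named genes tested and 15031 named on the array.

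Kaolin, a clay that obstructs the flow of cerebrospinal fluid and enlarges the ventricles, was injected on postnatal day 1, and control pups received saline at the same age. Cortex of both groups was taken at postnatal day 22, which is day 21 after kaolin. On each of 5 2-colour arrays, kaolin RNA was labelled with Cy3 and saline RNA with Cy5, so the value of a gene on an array is the log2 ratio of kaolin over saline, and the groups hold 5 samples each. The dyes were never exchanged, so dye and treatment cannot be told apart. Strain, sex and the number of animals behind a sample are not given in the sources used here, so a p-value measures the spread between these samples, which may be technical. Replicate 5 came from a different slide than replicates 1 to 4, which lay together on 1 slide. Across all tested probes the ratios of replicates 1 and 2 ran against each other (r = -0.37 across probes, which are not independent), while those of replicates 3 and 4 ran together (r = 0.83). The labels give the same dye order for all 5 arrays, and that direction was kept. Of 41012 probes, the kaolin samples gave 27956 to 29385 well above background and the saline samples 27372 to 28930, and no spot was saturated. The number of arrays limits the precision.

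Cholesterol is built from acetyl-CoA through mevalonate, the isoprenoids, squalene and a chain of sterols that starts with lanosterol. The brain makes nearly all of its own cholesterol, because lipoproteins of the blood do not cross the blood-brain barrier, and demand is high while myelin is laid down after birth. When the membrane of the endoplasmic reticulum holds little cholesterol, SCAP escorts SREBP2 to the Golgi, where it is cut to release a transcription factor that turns on most genes of the pathway; when cholesterol is ample, INSIG proteins hold SCAP back.

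Of the 27 genes, 24 had a negative mean log2 ratio, against 43.5% of tested genes, and 17 were negative on at least 4 of 5 arrays, against 23.9%. In limma, 0 of the 27 passed an adjusted p of 0.05, as did 0 of all tested genes (a background of 0%), and the adjusted p-values of the 27 ran from 0.243 to 0.813. At an unadjusted p under 0.05, 9 genes stood below 0 (Hmgcs1, Sqle, Msmo1, Hsd17b7, Sc5d, Dhcr7, Insig1, Srebf2 and Acly), against 6.59% of tested genes, and 0 stood above 0, against 12.3%. A mean below -0.5 was found for 4 genes (Msmo1, Hmgcs1, Insig1 and Sc5d), against 1.22% of tested genes. This count of 9 was 18 without replicate 1 (4.84% of tested genes were lower at that p), 12 without replicate 2 (12.5%), 2 without replicate 3 (2.51%), 4 without replicate 4 (2.67%) and 2 without replicate 5 (5.27%). It was 22 when arrays were centred on their median in place of loess (2988 of 11964 tested genes). Under that centring the lower share of all genes past an unadjusted p under 0.05 was 81.0%, against 35.0% with loess and 23.9% with the processed signals. Without replicate 2, Hmgcs1, Msmo1, Sc5d and Acly passed the adjusted threshold (adjusted p from 0.0421 to 0.0464 in limma), where 1.91% of tested genes passed as lower.

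The median over the 27 genes was 0.07 on replicate 1, 0.01 on replicate 2, -0.52 on replicate 3, -0.28 on replicate 4 and -0.78 on replicate 5, a mean of -0.30 ± 0.36 (SD, n = 5). The median over all tested genes lay between 0.00 and 0.04 on the same arrays. Below 0 stood 11 of the 27 genes on replicate 1 (47.1% of tested genes), 13 on replicate 2 (49.5%), 24 on replicate 3 (44.3%), 22 on replicate 4 (45.1%) and 26 on replicate 5 (45.2%). The genes therefore lay around 0 on replicates 1 and 2 and mostly below 0 on replicates 3, 4 and 5.

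**Figure D1:**
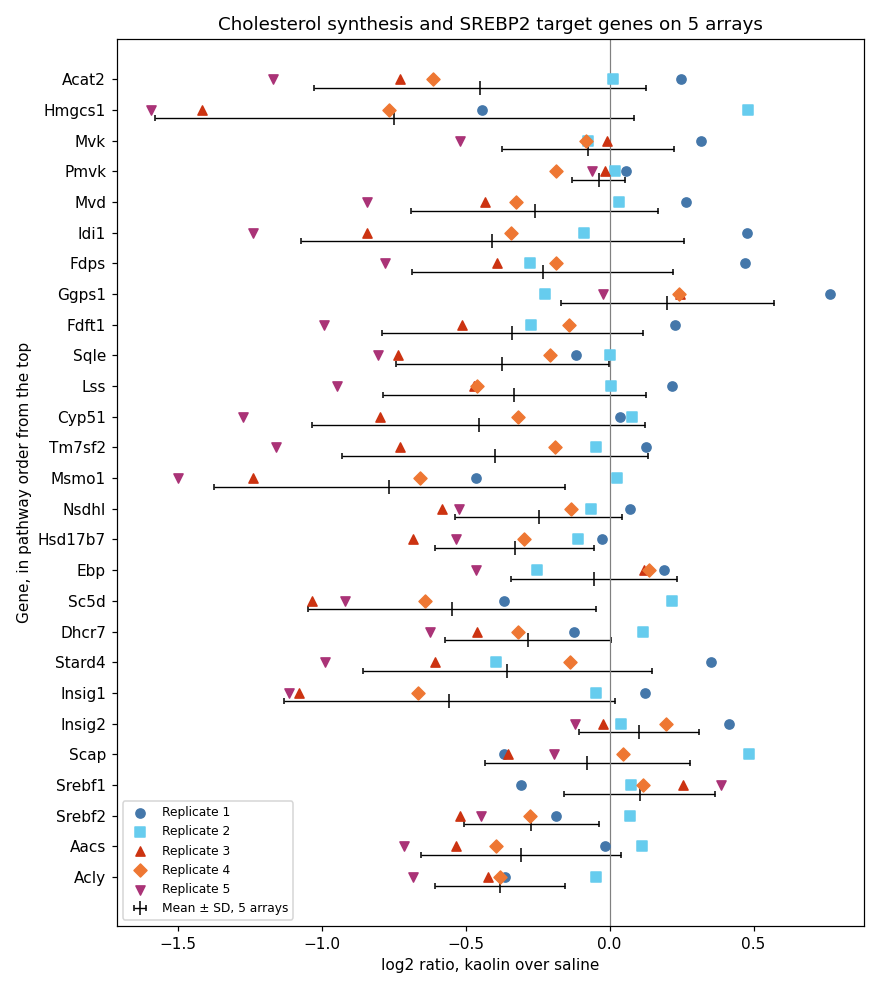
Log2 ratio of kaolin over saline (x axis) for each of the 27 genes in pathway order (y axis), with 1 symbol per array and the mean ± SD over 5 arrays as a bar below the symbols. Replicates 3 and 5 hold the lowest values of most genes, while replicates 1 and 2 scatter around 0, and Ggps1, Insig2 and Srebf1 are the genes with positive means.

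Promoters of 4 genes are shown, picked by their values or role: Hmgcs1 and Msmo1 had the 2 lowest means, Acly was lower in kaolin on every array, and Srebf2 encodes the regulator itself. The sequences are the 250 bases before the gene start from RefSeq (build GRCr8), 5′ to 3′ on the gene's strand. Capitals mark CCAAT, the box bound by NF-Y, which works together with SREBP at many sterol-responsive promoters, and CACCCCA, a core of the sterol regulatory element, each on either strand (CCAAT reads ATTGG on the other).
Hmgcs1, chr2:53382054-53382303 (+ strand): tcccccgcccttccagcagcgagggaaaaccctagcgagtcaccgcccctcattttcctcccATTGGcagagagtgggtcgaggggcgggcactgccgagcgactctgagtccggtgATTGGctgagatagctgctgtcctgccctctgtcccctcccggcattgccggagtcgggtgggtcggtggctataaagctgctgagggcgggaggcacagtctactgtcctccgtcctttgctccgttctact
Msmo1, chr16:29746863-29747112 (+ strand): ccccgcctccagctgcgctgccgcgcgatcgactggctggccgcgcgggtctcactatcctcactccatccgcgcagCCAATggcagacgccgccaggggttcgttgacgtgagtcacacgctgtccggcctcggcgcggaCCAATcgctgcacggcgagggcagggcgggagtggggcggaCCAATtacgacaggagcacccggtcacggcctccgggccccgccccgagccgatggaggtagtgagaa
Srebf2, chr7:115543057-115543306 (+ strand): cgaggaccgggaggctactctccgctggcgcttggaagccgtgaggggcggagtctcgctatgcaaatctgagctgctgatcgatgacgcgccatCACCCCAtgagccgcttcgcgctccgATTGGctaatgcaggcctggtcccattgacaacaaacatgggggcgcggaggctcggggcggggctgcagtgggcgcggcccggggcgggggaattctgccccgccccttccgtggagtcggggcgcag
Acly, chr10:85963632-85963881 (- strand): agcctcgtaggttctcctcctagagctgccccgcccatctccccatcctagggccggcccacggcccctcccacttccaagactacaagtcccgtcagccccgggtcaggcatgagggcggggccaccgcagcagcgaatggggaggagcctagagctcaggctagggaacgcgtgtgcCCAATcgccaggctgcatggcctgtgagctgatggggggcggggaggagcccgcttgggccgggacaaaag
The RefSeq table held a promoter for 23 of the 27 genes. CCAAT was found in 18 of these 23, against 34.0% of all 33469 promoters of this length and 35.0% of the 21851 that belong to protein-coding genes. CACCCCA was found in 3 of the 23 (Acat2, Ebp and Srebf2), against 5.90% of all promoters. The E-box CACGTG was found in 3 of 23, against 5.59%, and the GC box GGGCGG in 18 of 23, against 30.5% of all promoters and 38.9% of those of protein-coding genes. The letters of CACCCCA and CCAAT can overlap, and each match was counted. A match describes the letters and does not show that a factor binds there. CCAAT was present for Mvk (mean log2 ratio -0.07) and for Ggps1, Insig2 and Srebf1, whose means were positive. It was absent for Cyp51 (mean -0.46) and Acat2 (mean -0.45). Whether the boxes go with the ratios was not tested.

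The first steps, from acetyl-CoA to isopentenyl diphosphate, a 5-carbon isoprenoid unit, were led by Hmgcs1, the cytosolic HMG-CoA synthase (probe on rn4 at chr2:51754420-51754478). Gene models of that build were not used here, so the exon is not stated. Hmgcs1 stood at -0.44, 0.48, -1.41, -0.77 and -1.59 on replicates 1 to 5, the lowest value of the 27 genes on replicates 3, 4 and 5. Its mean of -0.75 ± 0.83 (SD, n = 5) is a kaolin level of 0.595 times saline (adjusted p = 0.255, limma). On replicate 2 this probe, the brighter of 2, went the other way. The other Hmgcs1 probe stood at -0.49, -0.03, -0.75, -0.78 and -1.46, so the reversal on replicate 2 was seen with 1 probe alone. Acat2, the thiolase that joins acetyl-CoA units, stood at 0.25, 0.01, -0.73, -0.61 and -1.17, so that kaolin lay below saline on replicates 3, 4 and 5 alone. Mvd, the decarboxylase that ends this stretch, had a mean of -0.26 ± 0.43 with the same 3 arrays below 0. The kinases between them lay near 0: Mvk averaged -0.07 ± 0.30 and Pmvk -0.04 ± 0.09, the smallest spread of the 27 genes.

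Of the 3 isoprenoid enzymes, 2 had negative means. Idi1, which interconverts the 5-carbon isoprenoid units, stood at 0.48, -0.09, -0.84, -0.34 and -1.24 on replicates 1 to 5, a mean of -0.41 ± 0.67 (SD, n = 5). Fdps, the farnesyl diphosphate synthase, averaged -0.23 ± 0.45 and was above 0 on replicate 1 at 0.47. Ggps1 makes geranylgeranyl diphosphate for protein prenylation and so leads away from sterols. It had the highest mean of the 27 genes, at 0.76, -0.22, 0.25, 0.24 and -0.02 on replicates 1 to 5 (mean 0.20 ± 0.37, adjusted p = 0.444 in limma). All 3 isoprenoid enzymes were above 0 on replicate 1 and below 0 on replicates 2 and 5.

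Squalene synthesis and ring closure were lower in kaolin on replicates 3, 4 and 5 for all 3 enzymes. Sqle, the epoxidase that is a rate-limiting step after mevalonate, stood at -0.12, -0.00018, -0.73, -0.21 and -0.80 on replicates 1 to 5. Its mean was -0.37 ± 0.37 (SD, n = 5; adjusted p = 0.250, limma). Sqle was below 0 on 5 of 5 arrays, as were 3 of the 27 genes and 5.21% of tested genes, although its value on replicate 2 is 0 in practice. None of the 27 genes was above 0 on 5 of 5 arrays, against 7.98% of tested genes. Fdft1, the squalene synthase, averaged -0.34 ± 0.45, and Lss, which closes the ring to lanosterol, -0.33 ± 0.46, both above 0 on replicate 1.

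The 8 enzymes that turn lanosterol into cholesterol all had negative means, and 4 of them, Msmo1, Hsd17b7, Sc5d and Dhcr7, had an unadjusted p under 0.05. Msmo1, the sterol methyl oxidase (rn4 chr16:26716174-26716233), had the lowest mean of all 27 genes. It stood at -0.46, 0.02, -1.24, -0.66 and -1.50 on replicates 1 to 5, a mean of -0.77 ± 0.61 (SD, n = 5) and a kaolin level of 0.588 times saline (adjusted p = 0.243, limma). Sc5d, the desaturase near the end of the chain (rn4 chr8:45231028-45231087), stood at -0.37, 0.22, -1.03, -0.64 and -0.92, a mean of -0.55 ± 0.50. Both genes lay below 0 on 4 arrays and above it on replicate 2.

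Cyp51, the lanosterol demethylase, stood at 0.04, 0.08, -0.80, -0.32 and -1.28, and Tm7sf2, a sterol reductase, averaged -0.40 ± 0.53 (SD, n = 5) with the same arrays low. Hsd17b7, a ketosteroid reductase, was below 0 on 5 of 5 arrays, at -0.03, -0.11, -0.68, -0.30 and -0.53. Dhcr7, the reductase that completes cholesterol, averaged -0.28 ± 0.29, and Nsdhl, the dehydrogenase of the demethylation complex, -0.25 ± 0.29. Ebp, the sterol isomerase, had values above 0 on replicates 1, 3 and 4 and a mean of -0.05 ± 0.29 that was positive in 3 of 16 alternative settings.

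Of the 6 genes that sense or carry sterols or control the pathway, 4 had negative means. Insig1, which retains SCAP in the endoplasmic reticulum and is itself a strong SREBP target, stood at 0.12, -0.05, -1.08, -0.67 and -1.12 on replicates 1 to 5 (mean -0.56 ± 0.57, SD, n = 5; adjusted p = 0.247, limma). Its relative Insig2, which is less dependent on SREBP, averaged 0.10 ± 0.21 and never left the range from -0.12 to 0.41. Srebf2 stood at -0.18, 0.07, -0.52, -0.28 and -0.45, a mean of -0.27 ± 0.23. Its mean was -0.59 both with the scanner's processed signals and with the authors' series matrix. Stard4, a carrier that moves sterols between membranes, averaged -0.36 ± 0.50. Scap, the escort, was scattered around 0 at -0.08 ± 0.36, from -0.37 on replicate 1 to 0.48 on replicate 2. Srebf1, which mainly drives fatty acid synthesis, had a positive mean, at -0.31, 0.07, 0.25, 0.12 and 0.39, a mean of 0.10 ± 0.26 (adjusted p = 0.600, limma).

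Of the 2 enzymes that feed the pathway, Acly makes cytosolic acetyl-CoA from citrate. It was below 0 on 5 of 5 arrays at -0.36, -0.05, -0.42, -0.38 and -0.68, a mean of -0.38 ± 0.23 (SD, n = 5; adjusted p = 0.243, limma). Its unadjusted limma p was the smallest of the 27 genes, and it was one of the 2 genes, with Msmo1, under 0.05 when replicate 3 or replicate 5 was left out. Aacs, which activates acetoacetate for sterol synthesis, averaged -0.31 ± 0.35 with positive values on replicate 2 alone.

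The 2 channels were also read apart, after scaling the arrays to each other. For Msmo1 the kaolin samples had normalized log2 intensities of 15.55, 15.97, 14.63, 15.36 and 14.63 on replicates 1 to 5, against 16.02, 15.95, 15.86, 16.01 and 16.13 in the saline samples. For Insig1 they were 13.47, 13.26, 12.16, 12.60 and 12.23 in kaolin, against 13.35, 13.30, 13.24, 13.27 and 13.35 in saline. The saline samples lay close together and the kaolin samples of replicates 3 and 5 lay far below them. Across the 27 genes the SD over kaolin samples had a median of 0.40, against 0.11 over saline samples, and the kaolin SD was the larger in 27 of 27 genes. Over all tested genes these medians were 0.18 in kaolin and 0.13 in saline, and the kaolin SD was the larger in 73.1%. Acly was the 1 gene of 27 whose kaolin samples all lay below all saline samples (1.19% of genes), from 13.52 to 13.88 in kaolin and from 13.93 to 14.20 in saline. In 0 of 27 genes did all kaolin samples lie above all saline samples (2.1% of genes).

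**Figure D2:**
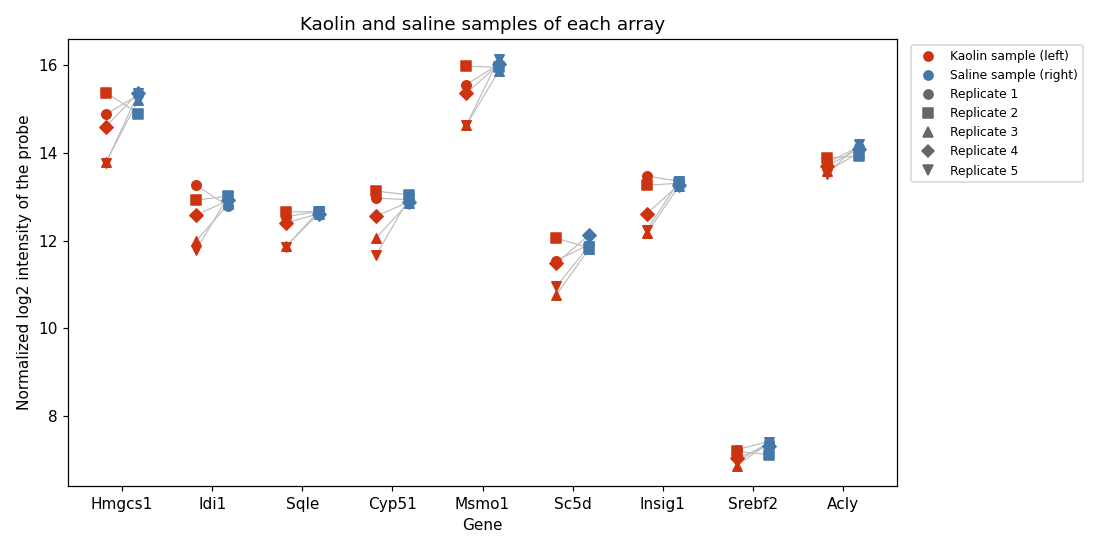
Normalized log2 intensity (y axis) of 9 of the genes (x axis) in the kaolin sample (left, red) and the saline sample (right, blue) of each array, joined by a line, with a symbol for each replicate. The kaolin samples of a gene spread more widely than the saline samples, mostly downward. Hmgcs1, Idi1, Cyp51 and Insig1 also have a kaolin sample above every saline sample. For Srebf2 and Acly the spreads are closer (SD 0.15 in kaolin against 0.12 in saline, and 0.15 against 0.11). Levels of different genes come from different probes and are not comparable.

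Within an array, a gene can also be placed by its rank among all 29114 tested probes. On replicate 5, 22 of the 27 genes lay in the lowest 10% of tested probes, against 8.96% of tested genes, and on replicate 3 there were 12, against 6.31%. Replicate 4 had 6 (5.95% of genes), replicate 2 had 3 (10.4%) and replicate 1 had 2 (7.51%). With its brighter probe, Hmgcs1 was at percentile 0.0824 on replicate 5, 1.20 on replicate 3 and 3.89 on replicate 4, but at 98.3 on replicate 2. Ggps1 was at percentile 98.6 on replicate 1 and 45.4 on replicate 5.

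**Figure D3:**
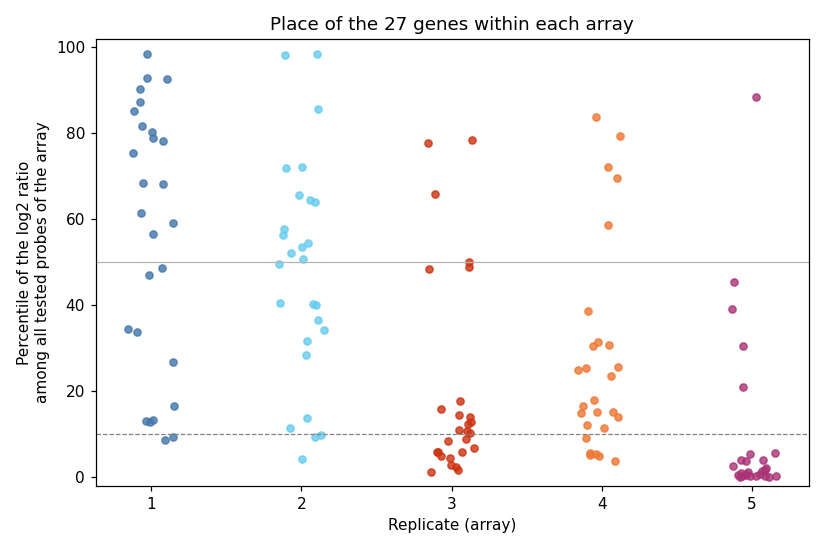
Percentile of the log2 ratio among all tested probes of the array (y axis) for the 27 genes on each replicate (x axis), 1 point per gene. The dashed line is percentile 10 and the solid line percentile 50; 22 points of replicate 5 and 12 of replicate 3 lie under the dashed line, against 2 on replicate 1.

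Genes with several probes had means of the same sign with each tested probe, although single arrays could differ in sign. The 4 probes of Insig1 had means from -0.56 to -0.26, the 2 of Hmgcs1 -0.75 and -0.70, and the 2 of Idi1 -0.61 and -0.41. The 2 tested Srebf1 probes had means of 0.10 and 0.30, the second from 10 spots per array. That second, less bright probe had an unadjusted p of 0.024 (limma), so the count of 0 genes above 0 at that threshold holds for the brightest probes. The 2 Srebf2 probes differed in size, at -0.27 and -0.02 (unadjusted limma p of 0.029 and 0.80), so the value of Srebf2 rests on which probe is read. One further probe each of Acat2 and Srebf1 was too dim to be tested.

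Neighbouring genes of lipid metabolism were read from lists of pathway membership; 0 of their members passed the adjusted threshold (0% of all genes), so the examples are those with the smallest p in each direction. Of 12 tested fatty acid synthesis genes, 10 had negative means, against 43.5% of tested genes. An unadjusted p under 0.05 was reached by 5 with a negative mean and by 1 with a positive mean (6.59% and 12.3% of tested genes). Their median was -0.13, 0.14, -0.61, -0.42 and -0.58 on replicates 1 to 5. Thrsp, an inducer of lipogenesis, averaged -0.85 ± 0.76 and Acsl3, an acyl-CoA synthetase, -0.42 ± 0.34 (SD, n = 5), while Elovl5, an elongase, averaged 0.17 ± 0.11 and Me1, the cytosolic malic enzyme, 0.17 ± 0.18. This list therefore lay low on the same 3 arrays as the cholesterol genes.

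The next list was drawn up for the machinery that cuts and restrains SREBP. Of the 8 genes on this SREBP processing list 6 had positive means, against 6757 of 11964 tested genes. An unadjusted p under 0.05 was reached by 3 with a positive mean (12.3% of tested genes) and by 0 with a negative mean (6.59%). The list median was 0.11, -0.01, 0.17, 0.06 and 0.03. Single values ran from -0.31 to 0.76, and the dimmest of the 8 genes was well above background on 2 arrays in each group. Ubxn8 is not an established part of the SREBP machinery, but it was on the list and is in these counts. Its mean of 0.33 ± 0.33 (SD, n = 5) was the highest of the 8. Rnf139, a sterol-sensitive ligase, averaged -0.13 ± 0.19, and Paqr3, a Golgi anchor of SCAP, -0.09 ± 0.19.

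The branch from isoprenoids to prenylated proteins, dolichol and ubiquinone had 8 of 11 positive means, against 6757 of 11964 tested genes. In it 0 genes had an unadjusted p under 0.05, against 18.8% of tested genes in either direction. Coq2, of ubiquinone synthesis, averaged 0.19 ± 0.16 and Rabggta, a prenyltransferase subunit, 0.14 ± 0.23, while Dhdds, of dolichol synthesis, averaged -0.12 ± 0.41 and Pggt1b, a prenyltransferase subunit, -0.07 ± 0.25.

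Of 15 genes of sterol uptake, storage and efflux, 9 had positive means, against 6757 of 11964 tested genes. An unadjusted p under 0.05 was reached by 2 with a positive mean (12.3% of tested genes) and by 1 with a negative mean (6.59%), shares near those of all genes. Nr1h3, the sterol-sensing receptor LXR alpha, averaged 0.54 ± 0.50 and Npc2, a lysosomal sterol carrier, 0.55 ± 0.61. Cyp27a1 and Cyp46a1, which hydroxylate cholesterol, averaged -0.24 ± 0.24 and -0.15 ± 0.09, both below 0 on 5 of 5 arrays (5.21% of tested genes). The value of Cyp27a1 on replicate 1, -0.00035, is 0 in practice.

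The RNA came from whole tissue, so fewer cells of a type and less RNA per cell cannot be told apart. Marker lists of cell types moved with the arrays as well. In kaolin over saline, 8 reactive astrocyte markers had medians of 0.09, -0.09, 2.65, 2.23 and 2.77 on replicates 1 to 5, 7 of 8 with positive means. For 10 microglia and macrophage markers the medians were -0.04, 0.10, 2.05, 1.50 and 1.96, with 10 of 10 means positive. Over all tested genes, 6757 of 11964 means were positive. Replicates 3, 4 and 5, on which the cholesterol genes were low, are the arrays on which these markers were high. The summed normalized intensity of the reactive astrocyte markers, led by Vim and Gfap, ran from 7211 to 71064 in kaolin samples and from 6517 to 9487 in saline samples. That of the microglial markers, led by Ctss and C1qb, ran from 32221 to 127515 in kaolin and from 28406 to 32088 in saline. Their part in the values of the cholesterol genes was not tested.

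Oligodendrocytes are major makers of cholesterol at this age. Their 12 markers had medians of 0.17, 0.07, -0.01, 0.24 and -0.62 on replicates 1 to 5, with 6 of 12 means negative (43.5% of tested genes). The summed intensity of these markers ran from 144761 to 253436 in kaolin and from 247873 to 284471 in saline. On replicates 3 and 4 the cholesterol median was -0.52 and -0.28 and the oligodendrocyte median -0.01 and 0.24, and on replicate 5 both were low. The 12 markers differed among themselves on replicates 3 and 4, with Ugt8 at -0.38 and -0.21 and Cnp at 0.40 and 0.49. Mbp, a myelin protein among the brightest of them, averaged -0.04 ± 0.35 (SD, n = 5). The 7 precursor markers, led by Olig1 and Bcas1, had medians of 0.05, 0.27, 0.05, 0.11 and -0.37.

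General astrocyte markers, led by Slc1a3 and Aldoc, had medians of -0.21, 0.24, -0.17, -0.02 and 0.24. Neuron markers, led by Snap25 and Nefm, had medians of -0.28, 0.19, -0.37, -0.25 and -0.29, with 9 of 10 means negative (43.5% of tested genes). The neuron sum ran from 108649 to 170332 in kaolin and from 132183 to 167365 in saline, and the astrocyte sum from 75789 to 107967 in kaolin and from 84351 to 98273 in saline. The filter on dim signals leaves no tested marker that was below background on all arrays of both groups, so this was set in advance. Dim markers remained: Clic6 of choroid plexus was well above background in 0 kaolin and 3 saline samples, and Otx2 in 1 and 4. Markers of choroid plexus, a neighbouring tissue led by Ttr and Sostdc1, ran from 976 to 3360 in kaolin and from 1369 to 56609 in saline, with list medians of -1.24, -0.63, -1.79, -0.73 and -0.09. Meningeal markers, led by Igf2 and Col1a2, had medians of -0.42, -0.15, 0.87, -0.02 and 0.65, and endothelial markers, led by Cldn5 and Kdr, of -0.11, 0.02, 0.27, -0.05 and -0.25. The part of these tissues and cells in the values of the cholesterol genes was not tested.

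**Figure D4:**
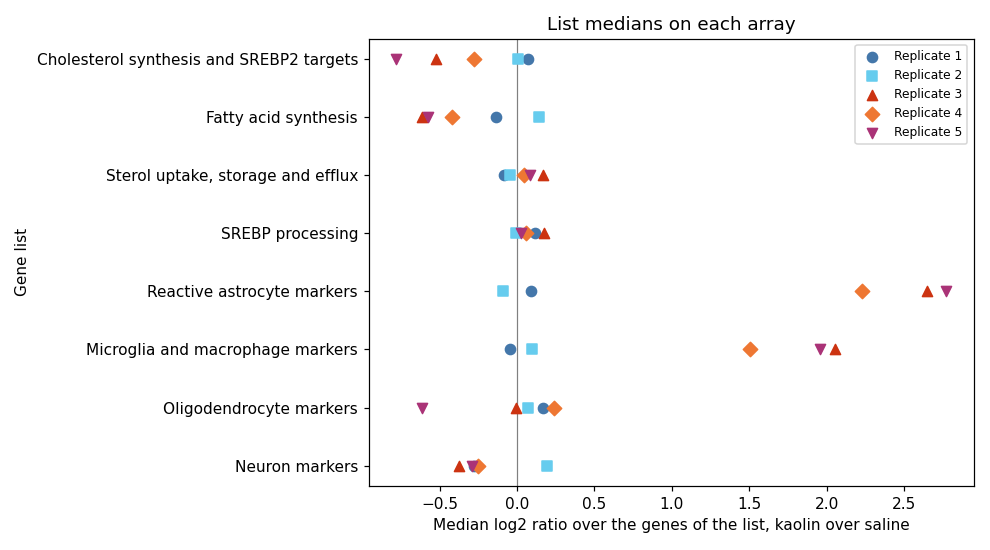
Median log2 ratio of kaolin over saline (x axis) over the genes of each list (y axis), with 1 symbol per array. The medians of the cholesterol and fatty acid lists lie below 0 on replicates 3, 4 and 5. On these arrays the medians of reactive astrocyte and microglial markers lie between 1.50 and 2.77. The median of the SREBP processing list lies between -0.01 and 0.17 on the 5 arrays, and its single genes range more widely.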

How the data were processed

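The 5 arrays carried parietal cortex RNA, kaolin in Cy3 and saline in Cy5, per the labels. Agilent Feature Extraction 10.1.1.1 produced the authors' scanner files, with probe positions on rn4, per the file headers. In them the mean spot signals and local backgrounds are raw intensity values, the processed signals are intensity values after dye normalization, the log ratio puts Cy5 over Cy3 on a log10 scale, and spot flags are other values, per the file headers. Values in the deposited series matrix are log2 ratios with an unstated normalization. Against the scanner's log10 ratios they correlated at r from -1.00 to -0.98, so they are kaolin over saline, with medians of 0.02, -0.05, -0.02, 0.09 and -0.10.

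Outlier spots (86 to 147 per array) were left out. Signals were corrected with normexp (offset 50), normalized within arrays by loess with controls at weight 0, and averaged per probe. The test took 29114 of 41012 probes, those that stood well above background in either channel on 3 or more arrays. The intercept was tested against 0 with lmFit and eBayes (limma 3.58.1, R 4.3.3), two-sided, with Benjamini-Hochberg adjustment over all tested probes. This was tested on simulated data. Separate channels were scaled with Aquantile after loess. Probes were named by accession (10768), symbol (5055) or older symbol (3388), and 21801 stayed unnamed. A gene is its brightest tested probe.

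Every one of the 27 genes was named. Of each other list, those past the threshold were named and, with none, the 2 with the smallest p in each direction; of marker lists, the 2 brightest. Some genes that this rule names are not reported here. The members and lists were chosen with earlier results of these data known. Alternatives changed background correction, normalization, the filter, array weights, the slide as a block, the sign of replicate 2, the probe rule and the arrays left out.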

Additional observations from a re-analysis of the deposited data

How the results depend on the processing

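The list median stayed negative in all 16 alternatives, and between 22 and 26 of 27 genes had negative means. The count of probes past the adjusted threshold, 0 with 5279 at an unadjusted p under 0.05, was 22 with median centring, 2830 with array weights, 489 with the sign of replicate 2 turned, and between 0 and 1536 with 1 array left out, the highest without replicate 2. The count of the 27 genes past it, 0 as reported, was 4 with array weights (Acly, Hmgcs1, Msmo1 and Sc5d, against 3.28% of tested genes) and between 0 and 4 with 1 array left out. The count at an unadjusted p under 0.05, 9 as reported, was 22 with median centring (2988 of 11964 tested genes lower), 16 with array weights (14.2% of them), 8 with the processed signals (3.91%) or the authors' series matrix (4.95%), 10 with the slide as a random block (9.85%), and between 2 and 18 with 1 array left out. Leaving out replicate 5 gives the values within the slide that replicates 1 to 4 share, a list median of -0.18 ± 0.27 (SD, n = 4); the other slide held 1 array. With median centring the median of all tested genes shifted by -0.12 and the 27 genes stood at -0.40 relative to it, against -0.36 with loess; the cause was not tested. The mean of Acly was -0.68 with median centring, against -0.38. Signs turned for Insig2 and Srebf1 with median centring, and for 1 of the 27 genes with array weights, 1 with the sign of replicate 2 turned and 2 without replicate 5. The test of within-array ratios is itself paired. No further paired analysis was possible because each array gives 1 ratio.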

Other observations

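Acat1, the mitochondrial thiolase, had a mean opposite in sign to that of Acat2, its cytosolic counterpart. It was picked once its value was known, and the difference was not tested. Acat1 averaged 0.25 ± 0.31 (SD, n = 5), against -0.45 ± 0.58 for Acat2. Of the 9 tested genes of acetyl-CoA, ketone body and electron supply, 6 had positive means, against 6757 of 11964 tested genes. An unadjusted p under 0.05 was reached by 3 of these 6 (12.3% of tested genes were higher at that p). Slc25a1, the citrate carrier, averaged -0.15 ± 0.09 and was below 0 on 5 of 5 arrays (5.21% of tested genes). Acss2, an acetyl-CoA synthetase, averaged -0.21 ± 0.33.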
